A study of Mus musculus with 2 samples.

Results

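The genes that encode Wnt ligands, their Frizzled receptors and their secreted modulators were examined for accessible chromatin in the developing mouse cortex. Members were all protein-coding genes of the GENCODE M21 annotation whose symbol is Wnt, Fzd, Sfrp, Dkk or Rspo followed by a number. This rule gave 41 of 21938 protein-coding genes: 19 Wnt, 10 Fzd, 4 Sfrp, 4 Dkk and 4 Rspo genes. The rule itself uses gene symbols and no measured value, although these families were picked with earlier results of the data known. Chromatin was profiled by DNase-seq, in which the enzyme DNase I cuts accessible DNA and the cut positions are sequenced. The tissue was left cerebral cortex, taken from 2 female B6CASTF1/J mice, F1 hybrids of the C57BL/6J and CAST/EiJ strains, at an age of 10 days. The libraries are named replicate 1 and replicate 2. Their labels number the animals separately but give 1 donor identifier for both, and they were treated here as 2 animals. Both animals carried the same genotype and no treatment was labelled, so there was 1 group and no condition to compare. With 2 libraries no test across samples was possible, and values are given per library, as mean ± SD (n = 2) or as counts beside the same count over all genes.

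Wnt proteins are lipid-modified secreted signals. They bind Frizzled receptors together with Lrp5 or Lrp6 and stabilise beta-catenin, which then works with TCF/LEF factors at target genes, or they act through planar polarity and other routes without beta-catenin. Sfrp proteins carry a Frizzled-like domain and bind the ligands outside the cell, Dkk proteins block the Lrp co-receptors, and R-spondins (Rspo) keep Frizzled receptors on the surface by removing the ligases Znrf3 and Rnf43. In the cortex the pathway is known for patterning of the early telencephalon, growth of brain vessels, axon guidance and synapse formation.

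A promoter was called open when the stricter of the 2 deposited peak lists of each library held a peak overlapping the 500 bp on either side of any annotated start of the gene. Peak signal is the height deposited with each peak, on a scale that is not given in the sources used here, and the signal of a promoter is that of its highest peak in a library. The stricter lists held 60071 and 70563 peaks and the larger ones 109563 and 121943. All signals were whole multiples of 1 step per library, and at the open promoters of members they amounted to 82 to 463 steps; if a step is 1 cut, the counting error was 4.65% to 11.0%. As a check of the tissue, promoters were open for 3 of 7 cortical neuron markers (Emx1, Neurod2 and Neurod6) and for 0 of 5 regulators of other regions. They were open for 1 of 5 interneuron, 2 of 5 astrocyte, 3 of 5 oligodendrocyte, 1 of 4 microglial, 1 of 6 vascular and 2 of 5 meningeal or choroid plexus markers. The tissue was not sorted, so at every locus fewer cells with open chromatin and less signal per cell cannot be told apart.

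Receptor promoters were open and ligand promoters were mostly not. Of the 41 members, 12 had an open promoter in both libraries (29.3%), against 55.2% of all protein-coding genes. These were 8 of 10 Fzd genes, 1 of 19 Wnt genes, 2 of 4 Sfrp genes, 0 of 4 Dkk genes and 1 of 4 Rspo genes. Put together, 4 of the 31 genes for secreted proteins were open (12.9%). A further 6 members had a stricter peak in 1 library only (4.67% of all genes), and 23 had none. In the larger lists 19 members had a promoter peak in both libraries (61.0% of all genes) and 18 had none in either (35.0% of all genes): 13 Wnt genes, Sfrp5, Dkk2, Dkk4, Rspo1 and Rspo4. Neighbouring genes are not independent, but no 2 of the 12 open members shared a promoter peak.

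**Figure D1:**
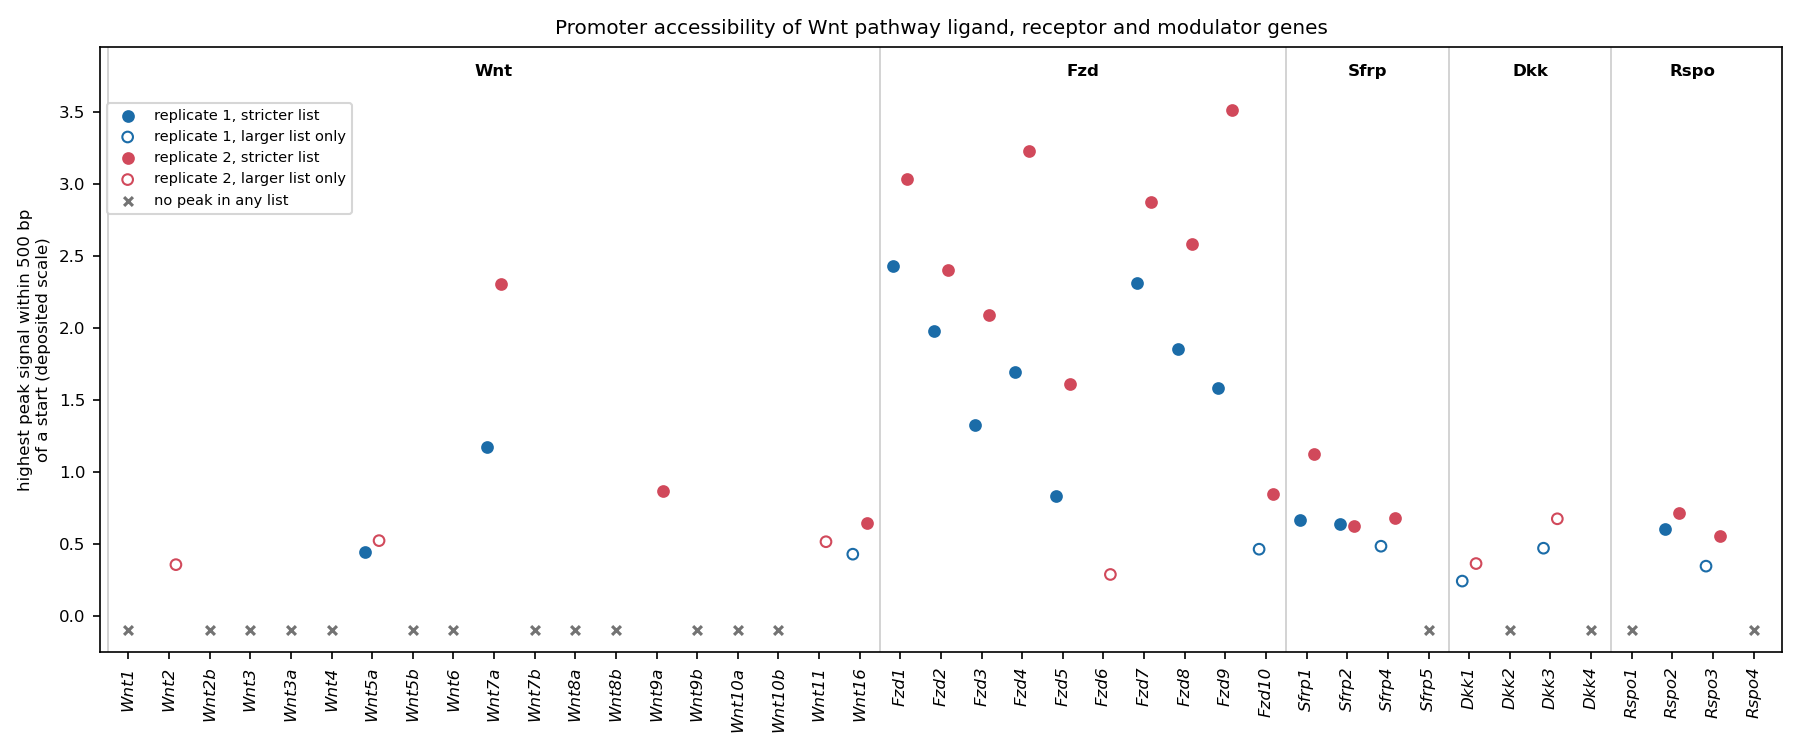
Highest promoter peak signal of each of the 41 genes in replicate 1 (blue) and replicate 2 (red), on the deposited scale, grouped by family. Filled points come from the stricter list, open points only from the larger list, and crosses at the bottom mark the 18 genes with no peak in any list. The Fzd family carries most of the filled points, from 0.830 to 3.51, while 13 of 19 Wnt genes are crosses.

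Wnt7a was the only ligand gene with an open promoter in both animals. It encodes a ligand known for synapse formation and for growth of brain vessels (chromosome 6, 91363981 to 91411363, minus strand). Its signal was 1.18 in replicate 1 and 2.30 in replicate 2 (1.74 ± 0.80), at percentile 28.2 of the 12105 open promoters by mean signal. The peak did not cover the start of Wnt7a. It lay 458 to 617 bp upstream, also within 500 bp of the start of the gene model Gm30437 on the other strand, so the data do not assign it to 1 of the 2 genes. At the Wnt7a start itself the larger lists held a weaker peak, of 0.526 and 0.538. The sequence shared by the upstream peaks of both libraries is shown because it is the sole ligand promoter region called; it is mm10 chr6:91411821-91411980 in the direction of Wnt7a transcription (minus strand), and capitals mark bases inside footprints of both libraries. Footprints are short stretches, listed by the authors, that are protected from cutting inside accessible DNA. All sequences are those of the C57BL/6J reference, and the CAST/EiJ copy was not analysed here.
Wnt7a: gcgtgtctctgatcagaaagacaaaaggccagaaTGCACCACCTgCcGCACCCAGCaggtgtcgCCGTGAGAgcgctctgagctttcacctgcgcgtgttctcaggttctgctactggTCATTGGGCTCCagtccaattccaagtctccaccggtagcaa

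The other ligand genes had weak peaks or none. Wnt5a, the classical ligand of the routes without beta-catenin, had 0.443 in replicate 1 and, in the larger list only, 0.523 in replicate 2. Wnt9a had 0.864 in replicate 2 and no peak in replicate 1, and Wnt16 had 0.644 in replicate 2 and 0.429 in the larger list of replicate 1. Wnt2 and Wnt11 had peaks of 0.356 and 0.515 in the larger list of replicate 2 alone. All of these values lie below the lower of the Wnt7a signals. The 13 genes without any promoter peak include Wnt1, known from midbrain patterning, Wnt3a and Wnt8b, known from the medial edge of the embryonic cortex, and Wnt7b, the closest relative of Wnt7a, at none of whose 6 annotated starts a peak was found.

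The lists of positions with a raised cut rate were read as a looser measure of accessibility. These deposited lists hold positions whose cut rate had a false discovery rate (FDR) below 0.05. Of the 41 members, 20 had such a position within 500 bp of a start in both libraries (61.9% of all genes) and 17 in neither (34.0% of all genes). The 17 were 13 Wnt genes, Sfrp5, Dkk4, Rspo1 and Rspo4. Dkk2, the other gene without a peak, had 15 bp of such positions in replicate 1, with a lowest FDR of 0.0413. At Wnt7a the lowest FDR was 5.57e-05 in replicate 1 and 1.01e-12 in replicate 2.

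Ligand promoters without accessibility were often rich in CpG dinucleotides, the sequence class whose promoters are usually open. The CpG observed over expected ratio, taken over the 500 bp on either side of the gene start, had a median of 0.552 over all genes, 0.738 over members, 0.654 over Wnt genes and 0.826 over Fzd genes. In the 3 highest deciles of this ratio, 90.3% of all genes had an open promoter, against 10 of 21 members. Among these were 6 of 8 Fzd genes, 1 of 9 Wnt genes, 2 of 2 Sfrp genes and 1 of 2 Rspo genes. In the 5 lower deciles 24.6% of all genes and 0 of 10 members were open. In the 5 highest deciles 5.33% of all genes had no position under the FDR limit in either library, and so did 12 of 31 members, 9 of them among the 14 Wnt genes there. Dkk genes were all in the lower deciles, with a median ratio of 0.435.

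The CpG-richest of these closed promoters was that of Wnt5b, with a ratio of 1.00, chosen after the values were seen. Wnt5b encodes a ligand close to Wnt5a (chromosome 6, 119432531 to 119544347, minus strand), and none of its 4 starts had a peak or a position under the FDR limit. The 192 bases before its start, mm10 chr6:119544348-119544539 on the minus strand, are shown to set this closed promoter beside the open one of Wnt7a above. Capitals mark the 31 CpG dinucleotides. No footprint was listed within 500 bp of a Wnt5b start in either library.
Wnt5b: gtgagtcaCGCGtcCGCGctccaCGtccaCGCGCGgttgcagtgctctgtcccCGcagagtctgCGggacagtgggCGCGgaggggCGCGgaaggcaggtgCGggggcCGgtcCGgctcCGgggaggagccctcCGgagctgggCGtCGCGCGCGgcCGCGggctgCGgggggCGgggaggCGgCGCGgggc

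**Figure D2:**
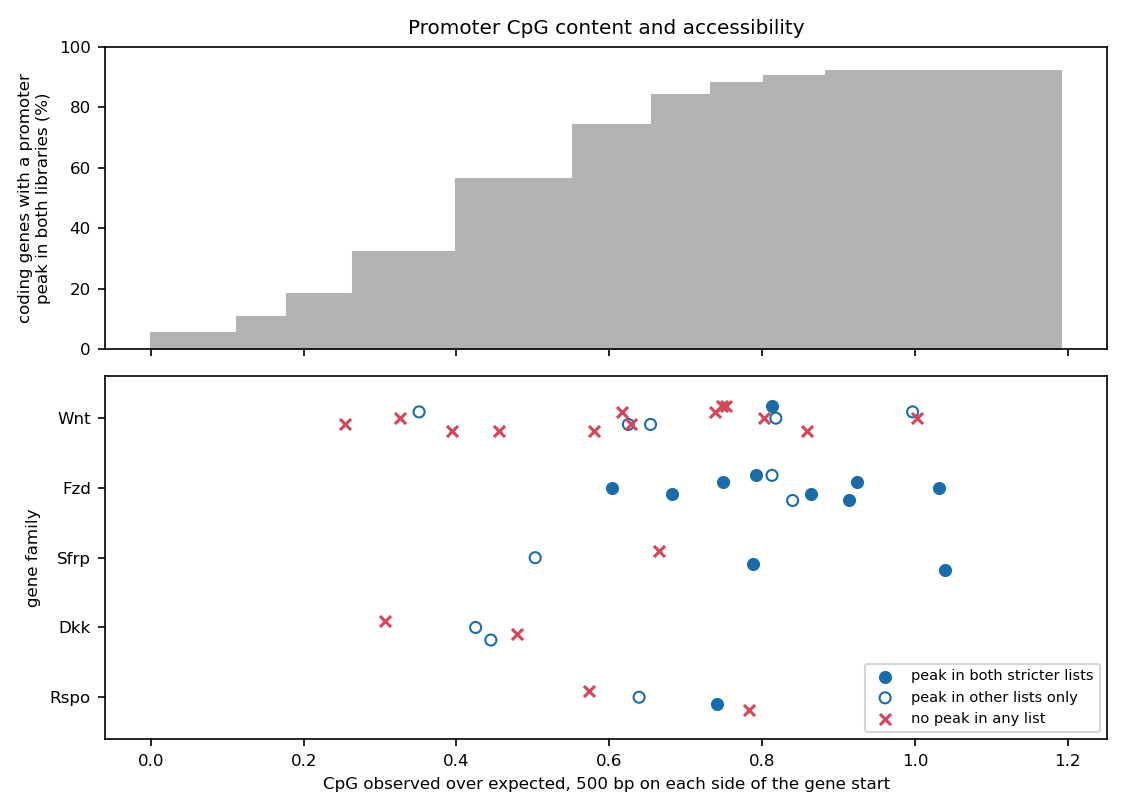
Upper panel: share of all protein-coding genes with an open promoter (%) in each decile of the CpG observed over expected ratio of the promoter. Lower panel: the ratio of each of the 41 genes by family, with filled points for a peak in both stricter lists, open points for a peak in other lists only and crosses for none. At ratios where 90.3% of genes are open, Fzd genes are mostly filled points and Wnt genes mostly crosses or open points.

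Fzd promoters were open with moderate signal. Fzd1 had 2.43 and 3.03 (2.73 ± 0.43, percentile 47.4 of all open promoters), and Fzd7 had 2.31 and 2.87 (2.59 ± 0.40). Both are receptors that can signal through beta-catenin. Fzd9, whose human counterpart lies in the Williams syndrome deletion, had 1.58 and 3.51 (2.55 ± 1.36). Fzd4, the receptor for the ligand Norrin in vessel growth, had 1.69 and 3.23 (2.46 ± 1.08). The peak of Fzd4 also lay within 500 bp of the start of the divergent gene Tmem135, to which it may equally belong.

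The other receptors followed at lower levels. Fzd8 had 1.85 and 2.58, and Fzd2 had 1.98 and 2.40. Fzd3, which guides growing axons through the planar polarity route, had 1.33 and 2.09, and Fzd5 had 0.830 and 1.61. By mean signal the order was Fzd1, Fzd7, Fzd9, Fzd4, Fzd8, Fzd2, Fzd3 and Fzd5. Neighbours in this order differed by less than the larger of their SDs, and the ranges over the 2 libraries of Fzd1 and Fzd3 did not overlap. These SDs include the generally higher signal of replicate 2, so they do not measure how firm the order is. In both libraries Fzd1 lay above Fzd7, Fzd2 above Fzd3 and Fzd3 above Fzd5, while the other neighbours changed order between libraries. The median Fzd mean was 2.34, and every open member lay below the median open promoter of 2.89.

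The remaining 2 receptors were at the edge of detection. Fzd10 had 0.849 in replicate 2 and 0.464 in the larger list of replicate 1, and its replicate 2 peak lay within 500 bp of the start of the noncoding gene 5930412G12Rik. Fzd6, known from hair patterning, had 0.288 in the larger list of replicate 2 alone. No Fzd gene was without a peak in all lists.

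The peaks found in both libraries at Fzd genes lay over the start or upstream of it. The peak shared by both libraries covered the annotated start at Fzd1, Fzd3, Fzd4, Fzd8 and Fzd9. The stretch called in both libraries lay 98 to 194 bp upstream at Fzd5 and 304 to 543 bp upstream at Fzd7. At Fzd5 the stricter peak of replicate 2 was longer, from -229 to 90 bp, and covered the start. Replicate 2 alone had further stricter peaks after the start at Fzd3 and Fzd8. Sequences of 2 of them follow, in the direction of transcription, with bases in footprints of both libraries in capitals: Fzd7 (chr1:59481881-59482120, plus strand) and Fzd9 (chr5:135251231-135251380, minus strand, the part before the start). They are shown because they hold repeated footprints found in both animals; the peak of Fzd1 lies in a transcribed leader in RefSeq, the NCBI annotation, and is not printed.
Fzd7: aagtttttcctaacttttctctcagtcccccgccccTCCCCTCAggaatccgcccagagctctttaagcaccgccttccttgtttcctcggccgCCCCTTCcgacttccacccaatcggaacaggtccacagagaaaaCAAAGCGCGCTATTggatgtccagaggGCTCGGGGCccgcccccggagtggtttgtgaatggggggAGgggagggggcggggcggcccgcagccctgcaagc
Fzd9: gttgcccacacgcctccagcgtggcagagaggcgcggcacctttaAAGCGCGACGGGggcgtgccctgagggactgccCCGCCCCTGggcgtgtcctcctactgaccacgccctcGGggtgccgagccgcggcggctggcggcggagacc

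Footprints, too, were found mostly at receptor genes. A footprint within 500 bp of a start was found in both libraries at 16 of 41 members (58.2% of all genes), which were 9 Fzd, 2 Wnt, 3 Sfrp and 2 Rspo genes. A footprint of replicate 1 overlapping one of replicate 2 was found at 10 members (54.0% of all genes), 7 of them Fzd genes. Fzd7 had 7 footprints in replicate 1 and 6 in replicate 2, and 5 of the former overlapped the latter. Fzd4 had 7 and 5 with 4 overlapping, Fzd8 had 4 and 10 with 4, Fzd9 had 5 and 4 with 3, and Fzd2 had 4 and 5 with 3. Fzd1 and Fzd3, with 4 and 3 footprints each, had none that overlapped. Over the 12 open members the median was 4 footprints in replicate 1 and 4.5 in replicate 2, against 5 and 5 over all open promoters.

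**Figure D3:**
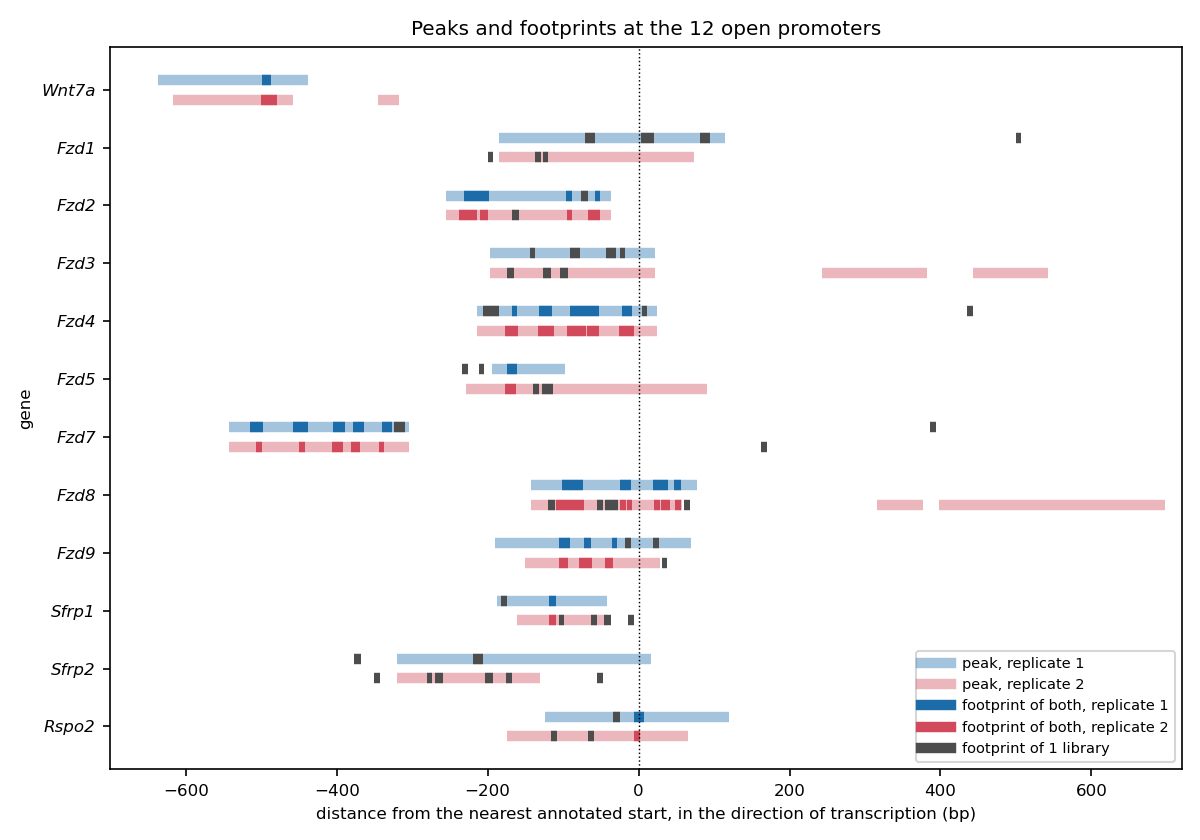
Stricter peaks (pale bars) and footprints (dark bars) around the starts of the 12 open promoters, in bp from the nearest annotated start in the direction of transcription, with replicate 1 in blue above replicate 2 in red. Grey footprints were found in 1 library. The Wnt7a and Fzd7 peaks lie upstream of the start, while those of Fzd1, Fzd3, Fzd4, Fzd8, Fzd9 and Rspo2 span it.

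At receptor promoters, footprints of replicate 1 that overlapped one of replicate 2 often held a GC box, the letters of Sp/Klf factors. Over all members 25 footprints of replicate 1 within 500 bp of a start overlapped one of replicate 2, and 23 lay in a stricter peak. With 5 bp added on each side, 14 of the 25 held the GC box GGGCGG on either strand (56.0%), against 21.9% of 39049 such footprints at all coding promoters. All 14 lay at 7 Fzd genes: Fzd2, Fzd4, Fzd5, Fzd7, Fzd8, Fzd9 and Fzd10. Fzd4 and Fzd7 held more of them than any other gene, and the share over all coding promoters was not matched for CpG content. The CCAAT box (CCAAT) was in 4 (16.0% against 5.24%), at Fzd7, Fzd8, Sfrp1 and Wnt7a. The TCF/LEF letters CTTTGAA or CTTTGAT were in 0 of 25 (0.215% of all), and the consensus of CTCF, a factor of chromatin loops, in 0. These counts are of letters in the replicate 1 footprints, and the partner in replicate 2 did not always hold them. At Fzd7 the overlapping replicate 2 footprints from -507 to -500, -381 to -370 and -344 to -338 bp held no GC box. Footprints of 1 promoter share their peak and are not separate observations, and a match describes the letters, not a bound factor.

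Some of the GC box footprints of replicate 1, with 5 bp added on each side, are shown in the direction of transcription. Matched letters are in capitals. They are shown because such footprints are what most receptor promoters had in common. Their positions are chr5:128600728-128600750 for Fzd10 (plus strand), chr7:89404329-89404351 for Fzd4 (plus strand), chr1:64737907-64737930 for Fzd5 (minus strand), chr1:59482041-59482065 for Fzd7 (plus strand) and chr5:135251289-135251307 for Fzd9 (minus strand). The Wnt7a (chr6:91411846-91411867, minus strand) and Sfrp1 (chr8:23411379-23411397, plus strand) footprints with a CCAAT box on the other strand are set beside them. In the Fzd7 stretch the marked letters lie beyond the overlapping replicate 2 footprint, which ends at chr1:59482054.
Fzd10: aagcagcagcgGGGCGGGGCGGc
Fzd4: cgccCCGCCCCCGCCCtgcgaac
Fzd5: cgctccGGGCGGggccgcggggcg
Fzd7: agagggctcggggcCCGCCCccgga
Fzd9: ctgccCCGCCCctgggcgt
Wnt7a: actggtcATTGGgctccagtcc
Sfrp1: gccggcgcggcgATTGGtt

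Most members held a GC box, open or not. Within 500 bp of the gene start, a GC box was present at 10 of 10 Fzd and 17 of 19 Wnt promoters, at 11 of 12 open and 25 of 29 other members, and at 60.4% of all promoters and 82.5% of all open ones. CCAAT boxes were at 10 of 12 open and 18 of 29 other members, against 70.7% of all promoters and 67.8% of all open ones. TCF/LEF letters, the sequence read by the pathway's own nuclear factors, were at 8 of 41 members (19.5%) against 25.5% of all promoters. E-box letters (CAGCTG or CATCTG), read by neurogenic factors among others, were at 24 members (58.5%) against 66.1%. All motifs were searched on both strands.

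Among the secreted modulators Sfrp1, Sfrp2 and Rspo2 had open promoters, all of low signal. Sfrp1 had 0.664 and 1.12 (0.893 ± 0.32), at percentile 8.29 of all open promoters. The stretch of its peak called in both libraries lay 42 to 161 bp upstream. Sfrp2 had 0.636 and 0.622 (0.629 ± 0.011, percentile 2.93). The stretch called in both libraries lay 131 to 320 bp upstream, and the replicate 1 peak reached over the start to 16 bp past it. Rspo2 had 0.602 and 0.713 (0.657 ± 0.078, percentile 3.53), with a peak over its start. With the stronger 50% of peaks alone, none of these 3 promoters was open. Each of these lies below the signals of Fzd1 to Fzd4 in both libraries.

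The other modulators were below the stricter threshold in 1 or both libraries. Sfrp4 had 0.682 in replicate 2 and 0.484 in the larger list of replicate 1, and Rspo3, an R-spondin of vessel growth, had 0.553 and 0.346 in the same way. In the larger lists alone, Dkk3, a divergent Dkk protein, had 0.470 and 0.675, and Dkk1, the inhibitor that pairs with Kremen proteins, had 0.242 and 0.364. Sfrp5, Dkk2, Dkk4, Rspo1 and Rspo4 had no promoter peak. Of the 7 members seen in both larger lists but not in both stricter ones, all had the higher value in replicate 2.

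Most open members had more signal in replicate 2, as did most promoters. Signal was higher in replicate 2 at 11 of the 12 open members (97.3% of all open promoters), with Sfrp2 as the exception. The median log2 ratio of replicate 2 to replicate 1 was 0.57, against 0.56 over all open promoters with an SD of 0.28. Fzd9 was the only member more than 2-fold apart (4.39% of all open promoters), with a log2 ratio of 1.15, followed by Wnt7a with 0.97. In signal steps, which drop the authors' scaling by library, the median was 0.44.

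Away from promoters, accessible regions were found around ligand genes too. A distal peak is one with its midpoint over 1 kb from the start of any GENCODE M21 gene, and a shared one overlaps between the stricter lists; they were counted in each gene body with 50 kb on either side. Distances are from a peak's midpoint to the nearest annotated start of the gene. Of 31956 shared distal peaks, 81 lay around members, and 37 of 41 members had at least 1 (90.2%, against 73.8% of all genes). The median was 2 per member and 2 over all genes, or 1.63 and 1.14 per 100 kb. Wnt genes had 44 distinct peaks, Fzd 18, Sfrp 8, Dkk 7 and Rspo 4. Only 55 of the 81 had a member's start as the nearest coding start, so nearness is all that ties these peaks to the genes. Wnt2, Sfrp4, Dkk4 and Rspo1 had none.

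The most distal peaks lay around Wnt7b and around Wnt6 and Wnt10a, none of which had a promoter peak. Wnt7b had 8, of which 5 lay 28358 to 43518 bp upstream of the gene with signals of 0.809 to 1.73 in replicate 1 and 0.917 to 2.02 in replicate 2; 2 of the 8 overlap each other within the gene 7530416G11Rik. The neighbours Wnt6 and Wnt10a shared a window with 7 peaks. The strongest of these, at chr1:74808201-74808420, had 2.43 and 3.48 and lay 14948 bp from the start of Wnt10a. The windows of Wnt3a and Wnt9a, of Wnt9b and Wnt3, and of Wnt10b and Wnt1 also overlap, and their shared peaks were counted once. Between Wnt3a and Wnt9a lay a peak of 3.02 and 3.41 (chr11:59302801-59303020), 4017 bp from the start of Wnt9a. Near Wnt10b and Wnt1 all 3 peaks had the neuronal gene Ddn as the nearest coding start. Wnt7a, the open ligand gene, had 3 distal peaks, 5226 to 18871 bp from a start, past the end of the gene. The 18 other ligand genes ranged from 0 to 8, with 1 each at Wnt4, Wnt5a, Wnt8b and Wnt16.

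The strongest distal peak around a member lay over a transfer RNA gene near Wnt11. It had 2.95 in replicate 1 and 4.28 in replicate 2, 19691 bp upstream of Wnt11, and covered the RefSeq gene n-TPtgg8, a proline transfer RNA (chromosome 7, 98815415 to 98815486, plus strand). The adjacent peak, with 1.99 and 2.36, covered another transfer RNA gene, n-TPagg7. Transfer RNA genes of RefSeq were not among the genes used to define distal peaks. They are transcribed by RNA polymerase III in their own right. Of the Wnt6 and Wnt10a peaks, 1 overlapped the transfer RNA gene n-TGgcc3. The strongest distal peak of each other family lay between genes or in an intron. For Dkk3 it was 24354 bp upstream, with 2.82 and 3.88, above every open promoter of a member by mean signal. For Fzd3 it was 57925 bp past a start and beyond the end of the gene, with 2.66 and 3.54, and Extl3 had the nearest coding start. For Rspo3 it lay in the gene's own intron, 2876 bp from its start, with 1.81 and 2.35, and for Sfrp2 it lay 1880 bp upstream, with 1.35 and 2.02. Signals were higher at these distal peaks than at the promoters of Dkk3, Fzd3, Rspo3 and Sfrp2 in both libraries. The peaks were picked as the strongest of their families, so part of this follows from the choice.

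These distal elements are printed on the plus strand, with bases inside footprints of both libraries in capitals, because each had the highest mean signal of the distal peaks of its family; that of Fzd3 is not printed. They are chr7:98815261-98815560 near Wnt11 (the first 300 bases of the peak), chr7:112183301-112183520 near Dkk3, chr10:29532901-29533080 in Rspo3 and chr3:83764341-83764540 near Sfrp2. Of the 81 distal peaks 65 held a footprint of both libraries (80.2%, against 76.0% of all shared distal peaks).
Wnt11 distal: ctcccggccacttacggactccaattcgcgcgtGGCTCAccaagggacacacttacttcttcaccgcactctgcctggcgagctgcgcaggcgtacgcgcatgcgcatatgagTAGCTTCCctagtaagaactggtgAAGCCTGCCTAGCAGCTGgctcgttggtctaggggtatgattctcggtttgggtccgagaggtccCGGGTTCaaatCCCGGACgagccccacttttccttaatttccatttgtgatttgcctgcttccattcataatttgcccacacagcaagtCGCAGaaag
Dkk3 distal: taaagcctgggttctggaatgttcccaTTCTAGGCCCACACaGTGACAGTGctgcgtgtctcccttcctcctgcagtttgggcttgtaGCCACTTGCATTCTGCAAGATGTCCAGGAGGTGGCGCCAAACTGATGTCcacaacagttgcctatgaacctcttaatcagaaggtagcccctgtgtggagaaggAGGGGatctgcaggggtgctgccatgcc
Rspo3 distal: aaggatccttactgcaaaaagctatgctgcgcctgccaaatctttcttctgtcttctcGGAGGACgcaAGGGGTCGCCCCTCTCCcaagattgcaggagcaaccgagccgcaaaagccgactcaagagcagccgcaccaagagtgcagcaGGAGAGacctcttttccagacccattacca
Sfrp2 distal: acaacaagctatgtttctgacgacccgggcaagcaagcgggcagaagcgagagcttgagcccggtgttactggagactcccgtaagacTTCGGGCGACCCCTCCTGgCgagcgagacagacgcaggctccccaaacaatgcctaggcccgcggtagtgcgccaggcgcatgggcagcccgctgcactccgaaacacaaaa

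The strength and letters of distal peaks around members were set beside those of all shared distal peaks. The median mean signal was 1.09, against 0.897 over all shared distal peaks. In the middle 200 bp of each peak, the CTCF consensus was found in 9 of 81 (11.1% against 10.8%), TCF/LEF letters in 4 (4.94% against 7.19%), E-box letters in 25 (30.9% against 40.1%) and GC boxes in 12 (14.8% against 7.57%). By position, 46 lay between GENCODE genes, 26 in introns and 9 in exons, and 16 lay in the body of a member. Fzd8 held 3 of the exonic ones in its own exon, 1078 to 1808 bp after the start.

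**Figure D4:**
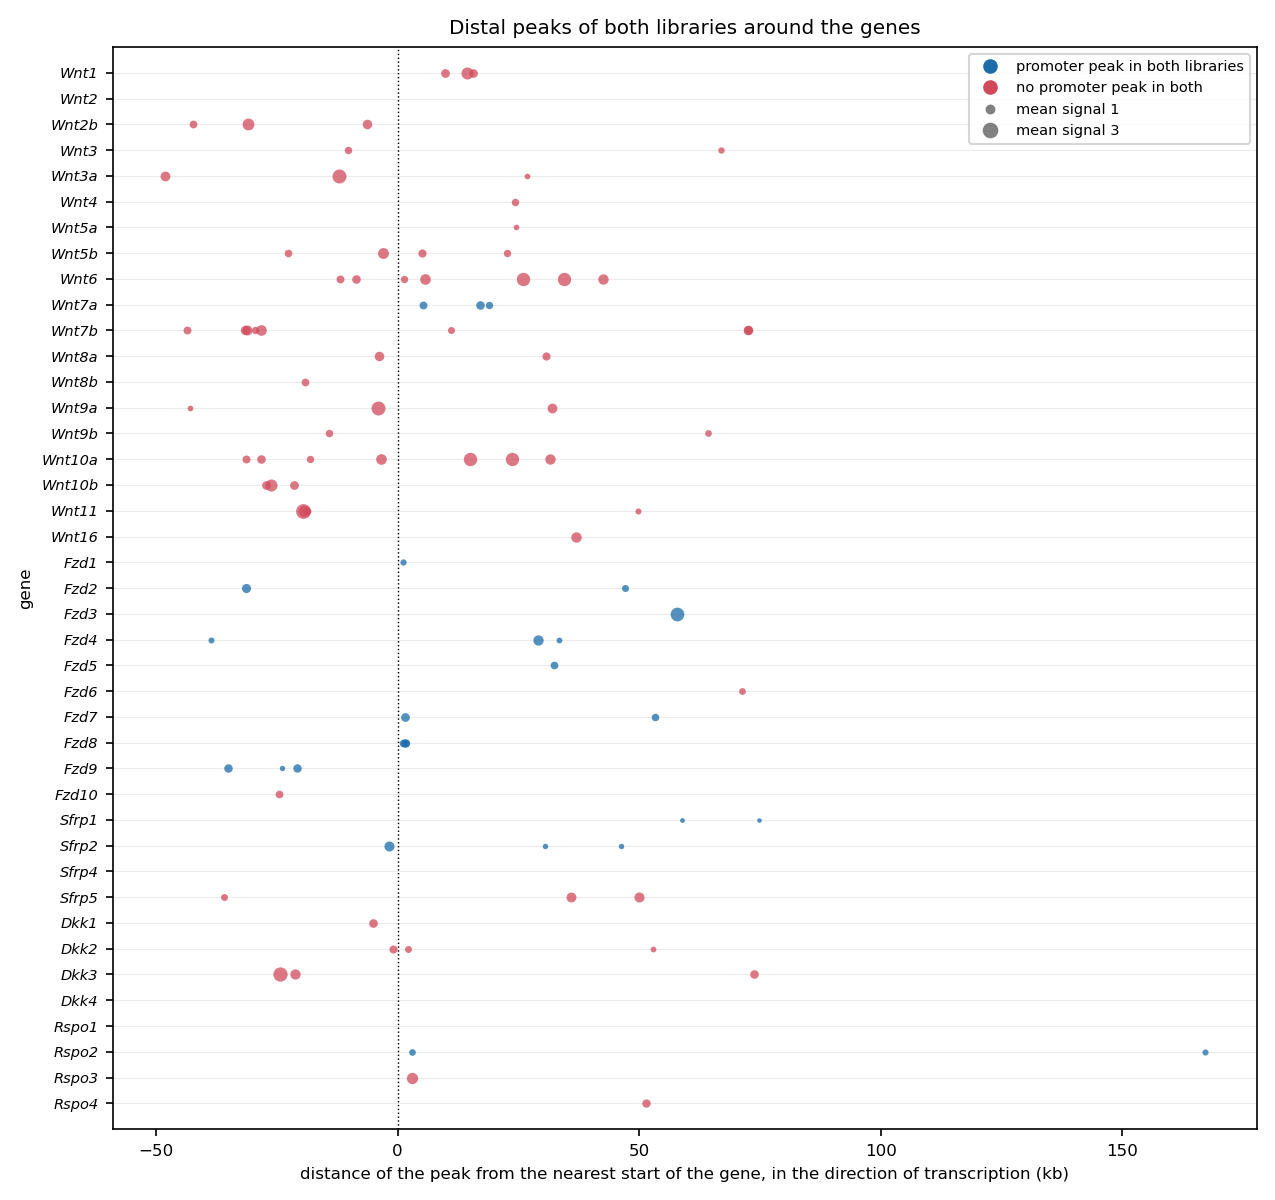
Distal peaks found in both libraries around each of the 41 genes, by distance from the nearest start of the gene in kb in the direction of transcription, with area in proportion to mean signal. Blue marks genes with an open promoter and red those without. Wnt genes with closed promoters such as Wnt7b and Wnt6 hold many points, and peaks in shared windows are drawn for each gene.

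Most genes of the other pathway lists had open promoters. In lists of 59 other genes of the pathway, 43 promoters were open in both libraries, against the 55.2% of all genes given above. In the 5 highest CpG deciles 37 of 49 were open (75.5%, against 85.8% of all genes there), and in the 5 lower deciles 6 of 10 (24.6% of all genes there). All 9 cytoplasmic transducers were open, with a median mean signal of 4.34. The kinase gene Gsk3b had 8.38 and 14.4 (11.4 ± 4.23) and Gsk3a had 4.32 and 6.80 (5.56 ± 1.75); both lie above every member. Both ligand secretion genes were open, Porcn, which adds the lipid, with 1.61 ± 0.38 and Wls, the carrier to the cell surface, with 0.706 ± 0.26. All 5 common target genes were open, led by Axin2, the feedback inhibitor, with 2.38 ± 0.70 and Myc with 1.90 ± 0.41. Output of the pathway was not measured.

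Surface and nuclear lists were mixed. Of 6 co-receptors and alternative receptors 4 were open, led by Ptk7 with 1.98 ± 0.69 and Ror1 with 1.71 ± 0.27, while Lrp5 and Ror2 were not. Of 5 R-spondin receptors and ligases 4 were open, led by Lgr4 with 3.64 ± 0.46 and Znrf3 with 2.06 ± 0.17, while Lgr6 was not. These encode the partners of R-spondins, and their count stands beside 1 of 4 for the R-spondin genes and 55.2% of all genes. In the larger lists the counts were 4 of 5 and 2 of 4, against 61.0% of all genes. Both counts rest on few genes. Of 15 other secreted or surface modulators 7 were open, led by Kremen1 with 2.69 ± 1.15 and Apcdd1 with 1.59 ± 0.76. Of 8 nuclear factors 5 were open, led by Pygo2 with 4.87 ± 1.54 and Bcl9 with 3.64 ± 0.89, while Tcf7, Lef1 and Pygo1 were not. Of 9 planar polarity genes 7 were open, led by Daam1 with 5.81 ± 1.03 and Celsr3 with 3.13 ± 0.90, while Vangl1 and Celsr1 were not.

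**Figure D5:**
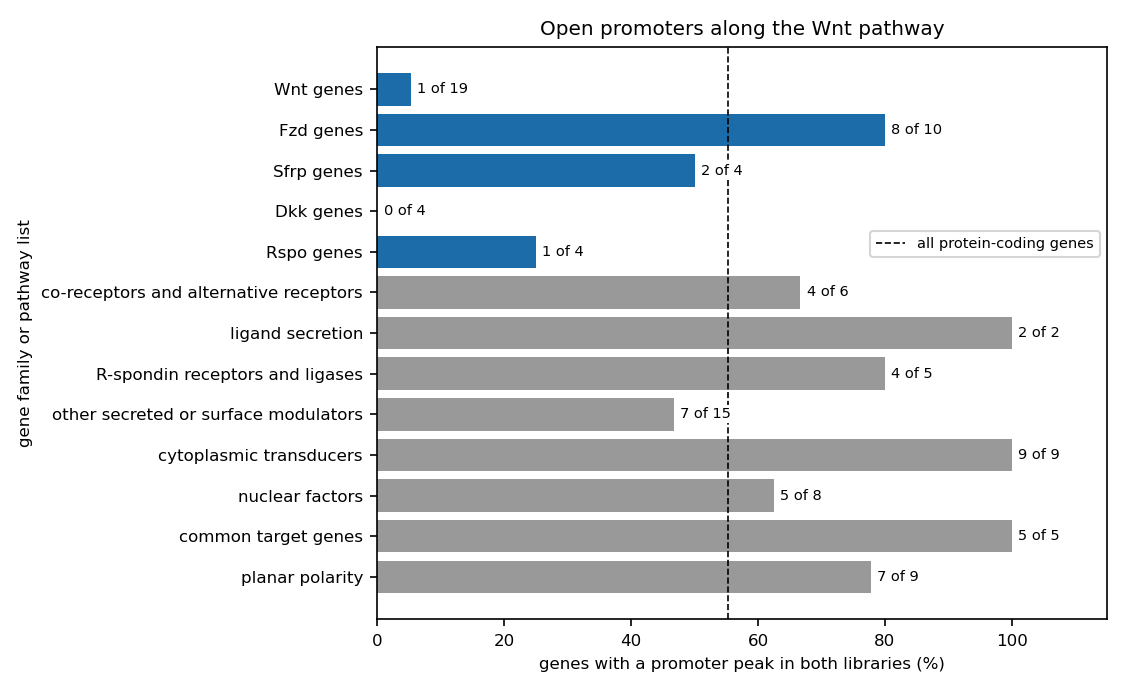
Share of genes with a promoter peak in both stricter lists (%) in the 5 families (blue) and in 8 lists of other pathway genes (grey), with counts beside the bars and the share of all protein-coding genes (55.2%) as a dashed line. Bars for Wnt, Dkk and Rspo genes end well short of the line, and those for Sfrp genes and other secreted or surface modulators just short. The bars of Fzd genes and of every other list pass it. All 10 Fzd genes lie in the 5 highest CpG deciles, where 85.8% of all genes were open.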

How the data were processed

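DNase-seq files of 2 libraries of left cerebral cortex (1 group, labelled biological replicates 1 and 2 with separate animal numbers) were used as deposited, on the mm10 build. According to the descriptions the authors deposited, peaks, footprints and cut-rate positions came from each library's own filtered alignments, without pooling. Aligner, callers and their thresholds are not given in the sources used here. Peak signal was deposited as 1 value per peak, scaled by library by the authors (whole multiples of 0.00692 and 0.00758, within 0.01 of a step for 100% of peaks), so level differences between libraries rest on that scaling. The p-value column deposited with the footprints held 0.01 throughout, and the deposited FDR values of cut-rate positions were all below 0.05.

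The reference was GRCm38.p6 with GENCODE M21, after comparing chromosome lengths. Peaks overlapped at 1 bp or more. The windows and members followed the stated rules, and sequences came from the reference outside UTRs of GENCODE and RefSeq, apart from footprints of at most 30 bases. The sequence of 1 promoter is not reported here. Motif matches were exact. Named pathway genes were the 2 of highest mean signal per list and those open, or not open, where at most 5; named distal peaks were the 3 strongest per family. Members, lists and motifs were chosen with earlier results of these data known. Alternatives were the larger lists, other windows, stronger peaks, other overlaps and each library alone. Scripts, tested on simulated data, used Python 3.11.15, numpy 2.4.6, pandas 2.3.3, pysam 0.24.0, samtools 1.23.1 and matplotlib 3.10.9.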

Additional observations from a re-analysis of the deposited data

How the results depend on the processing

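Members with an open promoter numbered 12, and 19 in the larger peak lists, where 61.0% of all genes were open. The stronger 50% of peaks (48.9% of all genes) and windows of 250, 1000 or 2000 bp (53.6%, 56.9% and 59.1%) gave 9 to 16. The gene model's own start and the same peak in both libraries each gave 12 (49.5% and 55.0% of all genes). Either library alone gave 13 to 17 members (56.0% to 59.0% of all genes), 44 genes of the pathway lists, and 16 to 22 members with a promoter footprint. Pathway genes with an open promoter numbered 43, and 35 to 46 under these alternatives. Of Wnt genes, 1 was open, against 0 with a window of 250 bp, 3 in the larger lists, 3 at 1000 bp and 4 at 2000 bp, where 59.1% of all genes were, 3 without replicate 1 and 2 without replicate 2; Rspo genes went from 1 to 2 without replicate 1, Sfrp and Rspo genes both to 0 with the stronger 50% of peaks; Fzd genes stayed between 7 and 9. Members with a footprint in both libraries numbered 16, and 10 when the footprints had to overlap. Shared distal peaks numbered 81, against 165 in the larger lists, 48 with the stronger 50% of peaks, 30 with a flank of 10 kb and 158 with 100 kb; each library alone gave 108 to 123. The cause of these shifts was not tested. The median log2 ratio between libraries was 0.57, and 0.44 to 0.59 under the alternatives. No paired analysis was possible because there was 1 group. With 2 libraries the spread joins animal and technical variation. The 6 promoters called in 1 stricter list had signals of 0.443 to 0.864, a range that also holds Sfrp2 and Rspo2, called in both.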

Other observations

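Some distal regions around members were found in 1 library only. Of the distal peaks of replicate 1 around members, 27 of 108 had no partner in replicate 2 (25%, against 17.1% of all distal peaks of replicate 1), and of those of replicate 2, 42 of 123 had none in replicate 1 (34.1%, against 31.4%). Around Wnt3a and Wnt9a, neighbours whose windows overlap, 7 and 6 distal peaks of replicate 2 had no partner in the stricter list of replicate 1. Around Wnt5b, 5 distal peaks of replicate 1 had no partner in replicate 2, beside 4 that were shared. The Wnt9a promoter itself had 0.864 in replicate 2, and neither list of replicate 1 held a peak there. With 1 library per animal, a difference between the animals and one between library preparations cannot be told apart.

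Wnt16 and Wnt5a, with several annotated starts, had weak peaks near them. Wnt16 had 2 stricter peaks of replicate 2 (0.644 and 0.531), which together lie within 500 bp of all 4 of its starts, each matched in the larger list of replicate 1 (0.346 and 0.429). Wnt5a, with 6 starts, had its single stricter peak at an internal start, from -579 to -444 bp relative to it.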
